A study of Mus musculus with 4 samples.

Results

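The DNA methylation and demethylation machinery comprised 10 genes, Dnmt1, Uhrf1, Dnmt3a, Dnmt3b, Dnmt3l, Tet1, Tet2, Tet3, Tdg, and Zfp57, picked by symbol from the 25081 gene symbols listed in mouse blastocyst RNA-seq and Ribo-seq. Each of the 10 was listed under a single row in both assays. RNA-seq measured the mRNA level and Ribo-seq the ribosome-protected fragments (RPF), and each assay had 2 replicates, which makes 4 libraries. All libraries came from untreated wild-type (WT) blastocysts of 4-week-old C57BL/6J females mated with PWK/PhJ males, although the strain label names C57BL/6N x PWK. The females were superovulated, and the embryos were taken at the 8-cell stage, cultured in KSOM medium to the blastocyst, and freed of the zona pellucida. The values were not split by parental allele, and the number of embryos per library and whether replicates were separate embryo pools are not given in the sources used here, so the spread between replicates may be technical.

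DNA methylation is copied to the new strand after replication by DNMT1, which is brought to hemimethylated sites by UHRF1. New methylation is set by DNMT3A and DNMT3B, which are aided by DNMT3L, a relative without catalytic activity. TET enzymes oxidize methylated cytosine, TDG cuts out the oxidized bases for repair, and ZFP57 binds methylated imprinting control regions and protects them while the rest of the genome loses methylation before implantation.

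Low FPKM values (fragments per kilobase, scaled to the size of the library) fell on steps, which gave the depth behind each value. The steps implied 5449496 and 5157633 fragments in RNA-seq replicates 1 and 2 and 533655 and 484265 in Ribo-seq replicates 1 and 2. Of the tested values, 57.8% and 55.4% in RNA-seq and 83.0% and 82.3% in Ribo-seq lay within 0.1 of a whole fragment. By chance 20% would, so the RNA-seq depths are less firm. Among marker genes, 7 of 7 trophectoderm, 3 of 6 epiblast, and 1 of 5 primitive endoderm genes were at 1 FPKM or more in every library. For oocyte markers, 6 of 8 were at 0 in all 4 libraries and the summed level was at most 1.92 FPKM, and 7 of 7 cumulus and granulosa markers were at 0. In whole embryos, fewer cells of a type and less mRNA per cell cannot be told apart.

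The coding sequences show what sets the members apart. All positions are on NCBIM37, the assembly of mm9, and all stretches were read on the coding strand of the genome and lie within 1 exon. The first set is the catalytic loop of the DNA methyltransferases, 60 bases long, with the codons of the catalytic proline and cysteine in capitals. It lay at chr9:20716236-20716295 on the minus strand for Dnmt1, and on the plus strand at chr12:3902390-3902449 for Dnmt3a, chr2:153502916-153502975 for Dnmt3b, and chr10:77519599-77519658 for Dnmt3l. Dnmt3l has no such codon pair in this stretch and is shown without capitals.
Dnmt1: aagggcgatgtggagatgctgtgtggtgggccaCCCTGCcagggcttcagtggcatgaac
Dnmt3a: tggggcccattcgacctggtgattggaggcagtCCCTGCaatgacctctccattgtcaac
Dnmt3b: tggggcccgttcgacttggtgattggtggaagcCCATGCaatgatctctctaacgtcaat
Dnmt3l: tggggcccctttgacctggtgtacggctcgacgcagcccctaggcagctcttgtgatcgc

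The second set is a 45-base stretch of the TET genes around the iron-binding histidine and aspartate, whose codons are in capitals. It lay on the minus strand at chr10:62277193-62277237 for Tet1, chr3:133134313-133134357 for Tet2, and chr6:83323197-83323241 for Tet3. All 3 genes carried the same pair of codons at this spacing.
Tet1: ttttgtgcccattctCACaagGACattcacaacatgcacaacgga
Tet2: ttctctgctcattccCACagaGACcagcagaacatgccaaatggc
Tet3: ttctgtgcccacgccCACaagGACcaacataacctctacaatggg

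The third set shows near copies, which bear on how firmly a 28-base footprint can be placed. Bases 301 to 360 of the Tdg coding sequence (chr10:82104162-82104221, plus strand) are set beside the copy in Gm5806 (chr15:82347142-82347201, plus strand), with the 1 base that differs in capitals. The same 60 bases occurred with 0 differences in Gm9855 (chr10:41774825-41774884, minus strand) and in a copy with no gene name (chr7:83390538-83390597, minus strand). For Dnmt3b, the catalytic loop of the neighbouring Gm14490 (chr2:153545690-153545749, plus strand), a duplicate also known as Dnmt3c, differed at 8 bases, shown in capitals.
Tdg: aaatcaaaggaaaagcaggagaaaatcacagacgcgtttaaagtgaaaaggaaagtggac
Gm5806: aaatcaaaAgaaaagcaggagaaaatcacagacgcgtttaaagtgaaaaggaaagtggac
Gm14490: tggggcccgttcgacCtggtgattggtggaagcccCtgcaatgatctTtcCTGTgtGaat

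Of the maintenance genes, Uhrf1 stood above Dnmt1 in every library. Dnmt1 (chr9:20711650-20757317, minus strand) stood at 3.27 and 4.63 FPKM of mRNA in replicates 1 and 2 (3.95 ± 0.963, SD, n = 2). Its RPF level was 12.2 and 14.1 FPKM (13.1 ± 1.41), which rested on about 30 and 32 footprints. Uhrf1 (chr17:56442744-56462909, plus strand) had 9.72 and 8.72 FPKM of mRNA (9.22 ± 0.704) and 78.4 and 47.5 FPKM of RPF (63.0 ± 21.8), or about 90 and 49 footprints. The replicates of the 2 genes did not overlap in either assay. Uhrf1 was 2.97 and 1.88 times Dnmt1 at the mRNA level and 6.45 and 3.36 times at the RPF level.

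**Figure D1:**
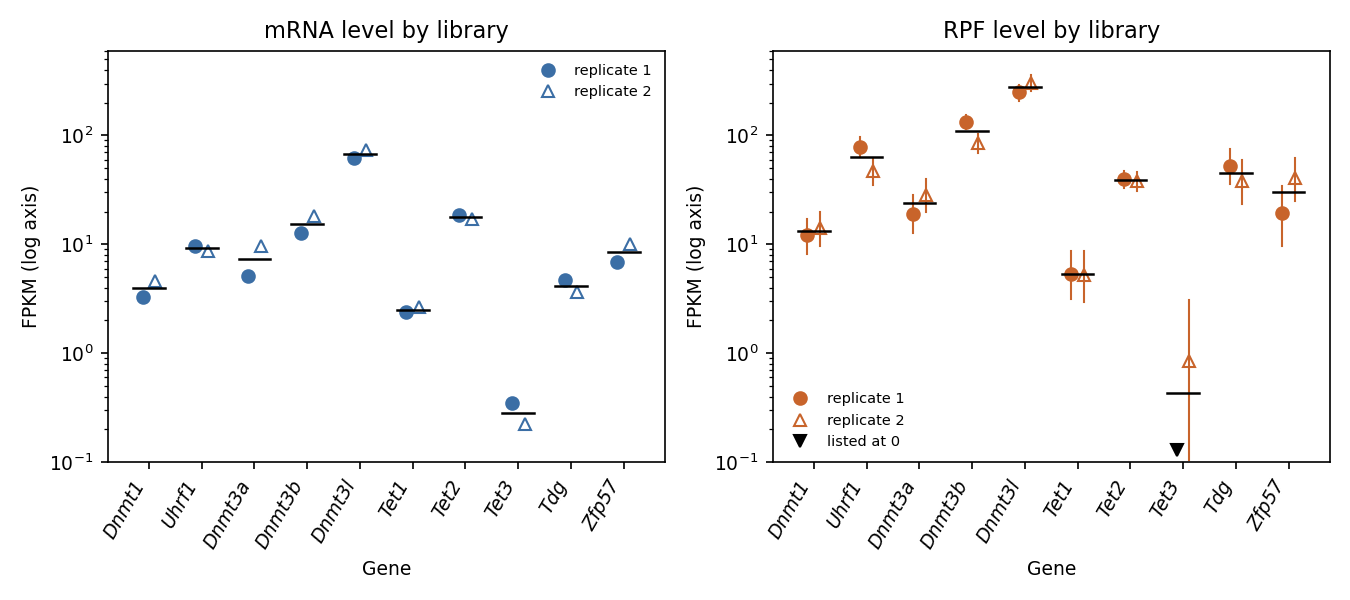
FPKM of each of the 10 members (log axis) in the 2 RNA-seq and the 2 Ribo-seq libraries, with 1 point per library and 95% Poisson intervals (counting error only) on the Ribo-seq points, black bars at the means, and a downward triangle for a value of 0. Dnmt3l was highest in all 4 libraries, and Tet3 was lowest in all 4, with 0 FPKM in Ribo-seq replicate 1.

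Among the de novo genes, Dnmt3l was the highest and Dnmt3a the lowest in all 4 libraries. Dnmt3l (chr10:77504692-77526367, plus strand), the cofactor, had 62.2 and 72.9 FPKM of mRNA (67.5 ± 7.59) and 249 and 304 FPKM of RPF (276 ± 39.3), or about 141 and 157 footprints. Its mRNA level exceeded that of 95.7% and 96.0% of the symbols listed in RNA-seq. Dnmt3b (chr2:153475186-153513466, plus strand), a de novo enzyme, had 12.6 and 18.3 FPKM of mRNA (15.4 ± 3.97) and 134 and 85.3 FPKM of RPF (110 ± 34.5). The other de novo enzyme, Dnmt3a (chr12:3806007-3914443, plus strand), had 5.08 and 9.63 FPKM of mRNA (7.35 ± 3.22) and 19.0 and 28.7 FPKM of RPF (23.9 ± 6.84).

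The replicates of these 3 genes were separated from one another in both assays. Dnmt3b was 2.49 and 1.90 times Dnmt3a at the mRNA level, and 7.05 and 2.97 times at the RPF level. Dnmt3l was 4.92 and 3.99 times Dnmt3b at the mRNA level, and 1.85 and 3.57 times at the RPF level. The size of the Dnmt3b values thus varied between replicates, although their order did not. Its RPF rested on about 170 and 98 footprints, whose 95% Poisson intervals (114 to 155 and 69.0 to 104 FPKM, counting error only) did not overlap. In replicate 2 the Dnmt3b mRNA was higher by 0.50 on the log2 scale, log2(FPKM + 1), and its RPF lower by 0.65. Dnmt3a differed most between replicates at the mRNA level, by 0.81, more than 89.0% of the 1745 genes of similar level.

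Expressed as shares of the summed Dnmt3 family level, Dnmt3l made up 77.8% and 72.3% of the mRNA and 61.9% and 72.7% of the RPF. Dnmt3b made up 15.8% and 18.1% of the mRNA and 33.4% and 20.4% of the RPF. Dnmt3a accounted for 6.36% and 9.56% of the mRNA and 4.73% and 6.86% of the RPF. The share of Dnmt3b was higher in both Ribo-seq libraries than in either RNA-seq library, whereas the shares of Dnmt3l and Dnmt3a overlapped between assays. For Dnmt3b, RNA-seq replicate 2 (18.1%) and Ribo-seq replicate 2 (20.4%) were closer to each other than the 2 Ribo-seq libraries were. Shares in mRNA rest on whole transcript lengths and those in RPF on coding lengths, and no test was attached to them. Among the 3 catalytic methyltransferases (Dnmt1, Dnmt3a, and Dnmt3b), Dnmt3b made up 60.2% and 56.1% of the mRNA and 81.1% and 66.6% of the RPF.

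**Figure D2:**
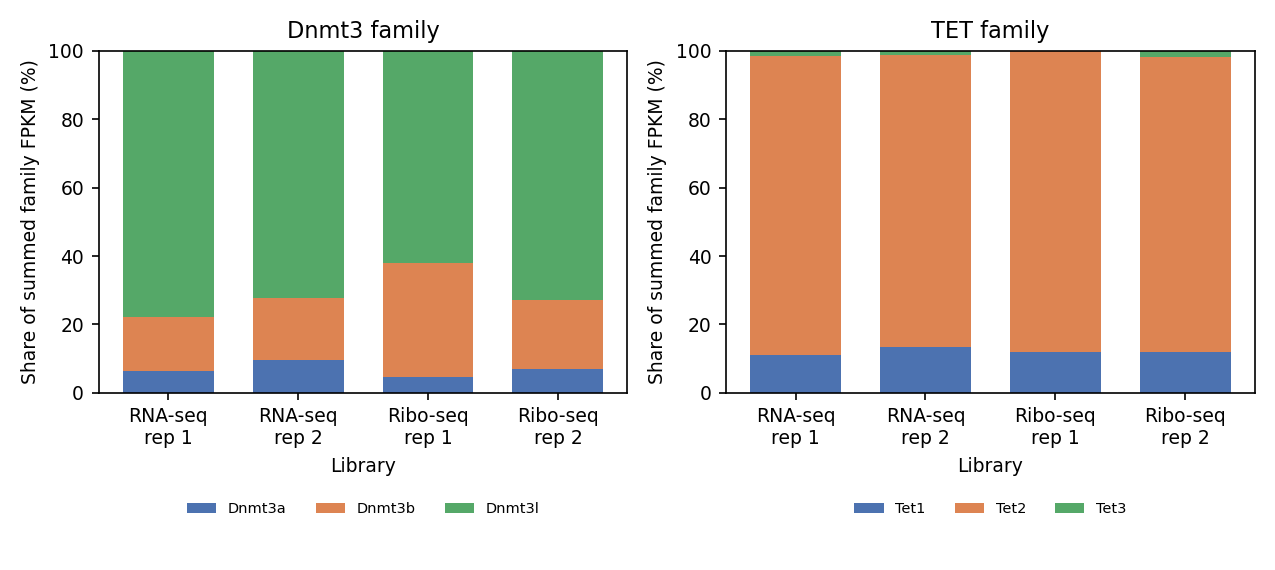
Share of the summed FPKM (percent) taken by each gene of the Dnmt3 family and of the TET family in each library, as stacked bars from 0. Dnmt3l takes 61.9% to 77.8% of the Dnmt3 family and Tet2 takes 85.6% to 88.1% of the TET family.

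Tet2 was the prevailing TET gene. Tet2 (chr3:133126643-133207354, minus strand) had 18.7 and 17.1 FPKM of mRNA (17.9 ± 1.12) and 39.6 and 37.9 FPKM of RPF (38.8 ± 1.21), or about 118 and 102 footprints. Tet1 (chr10:62267318-62361866, minus strand) had 2.37 and 2.65 FPKM of mRNA (2.51 ± 0.199) and 5.37 and 5.22 FPKM of RPF (5.29 ± 0.105), or about 17 and 15 footprints. The level of Tet2 was 7.89 and 6.45 times that of Tet1 for mRNA and 7.39 and 7.27 times for RPF. The closeness of the 2 Tet1 RPF values should be read against its few footprints: they differed by 0.03 on the log2 scale, and 1.55% of 1485 genes of similar level differed by less.

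Tet3 was at the edge of detection. Tet3 (chr6:83312367-83391672, minus strand) had 0.346 and 0.223 FPKM of mRNA, about 20.2 and 12.3 fragments. Its RPF was 0 and 0.857 FPKM, or 0 and about 2 footprints. Both lay under the floor of 3 footprints per library, 1.17 and 1.29 FPKM, so that no level was measurable by Ribo-seq at this depth. Tet3 therefore took 1.62% and 1.11% of the TET family mRNA.

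Tdg (chr10:82092573-82113544, plus strand), the glycosylase that acts after the TET enzymes, had 4.69 and 3.67 FPKM of mRNA (4.18 ± 0.721) and 52.5 and 38.5 FPKM of RPF (45.5 ± 9.93). The RPF rested on about 30 and 20 footprints, since its coding sequence is short. At the mRNA level Tdg was 0.251 and 0.215 times Tet2. At the RPF level it was 1.32 and 1.01 times Tet2, and the replicates of the 2 genes overlapped. Glt8d2, which overlaps an exon of Tdg on the other strand, was at 0.0936 and 0 FPKM of mRNA, and Aire, which overlaps Dnmt3l in the same way, was at 0.749 and 0.264 FPKM. Strand was not stated for the counting, so reads in these overlaps cannot be assigned to one gene.

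Zfp57 (chr17:37138108-37147580, plus strand), the imprint protector, had 6.94 and 10.1 FPKM of mRNA (8.54 ± 2.26) and 19.5 and 41.0 FPKM of RPF (30.3 ± 15.2). Its 2 RPF values were the most widely spaced of the 9 members above the footprint floor, with a log2 difference of 1.04. They rested on about 11 and 21 footprints, and 82.0% of 1431 genes of similar level differed by less.

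At the mRNA level, the members fell in the order Dnmt3l, Tet2, Dnmt3b, Uhrf1, Zfp57, Dnmt3a, Tdg, Dnmt1, Tet1, and Tet3 by their means. Neighbours whose replicates overlapped were Tet2 and Dnmt3b, Uhrf1 and Zfp57, Zfp57 and Dnmt3a, and Tdg and Dnmt1. At the RPF level, the order was Dnmt3l, Dnmt3b, Uhrf1, Tdg, Tet2, Zfp57, Dnmt3a, Dnmt1, Tet1, and Tet3. There, the run from Uhrf1 through Tdg, Tet2, and Zfp57 to Dnmt3a overlapped from neighbour to neighbour. The order is a description read from whether replicates overlapped, and no test was attached to it.

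Whether a member carried more or fewer RPF for its mRNA than the typical gene was asked across 8327 genes with a mean of at least 1 FPKM in both assays. Of the members, 9 passed this filter, and Tet3 did not, with means of 0.284 FPKM of mRNA and 0.428 FPKM of RPF. The difference of RPF and mRNA on the log2(FPKM + 1) scale was centred on the median of all tested genes, 1.26. Adding 1 to each FPKM shrinks the uncentred difference of low genes, and the same 1.26 was then subtracted from every gene. Low genes with more RPF than mRNA are therefore placed lower on this scale. Here a positive value means a higher ratio than the median gene, not a higher absolute rate of translation. In the limma fit, 760 genes (9.13%) were called higher and 270 (3.24%) lower, at a Benjamini-Hochberg adjusted p under 0.05 and a difference of at least 1. Quantile normalization gave 646 and 470.

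Tdg was the 1 member called, a share of 9 members close to the background, and it was higher in RPF than in mRNA. Its RPF was 11.2 and 10.5 times its mRNA level in replicates 1 and 2, and its lowest RPF value was 8.20 times its highest mRNA value. The centred difference was 1.90 (SE 0.297, 95% confidence interval 1.07 to 2.72, limma adjusted p = 0.0382). In the alternatives tried, the adjusted p rose above 0.05, among others, with a pseudocount of 0.1 (2.01, limma adjusted p = 0.0555), without RNA-seq replicate 1 (2.04, limma adjusted p = 0.299), and without RNA-seq replicate 2 (1.74, limma adjusted p = 0.317). In the last 2 fits the spread came from Ribo-seq alone and limma called 0 of all tested genes, so they do not bear on Tdg in particular.

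**Figure D3:**
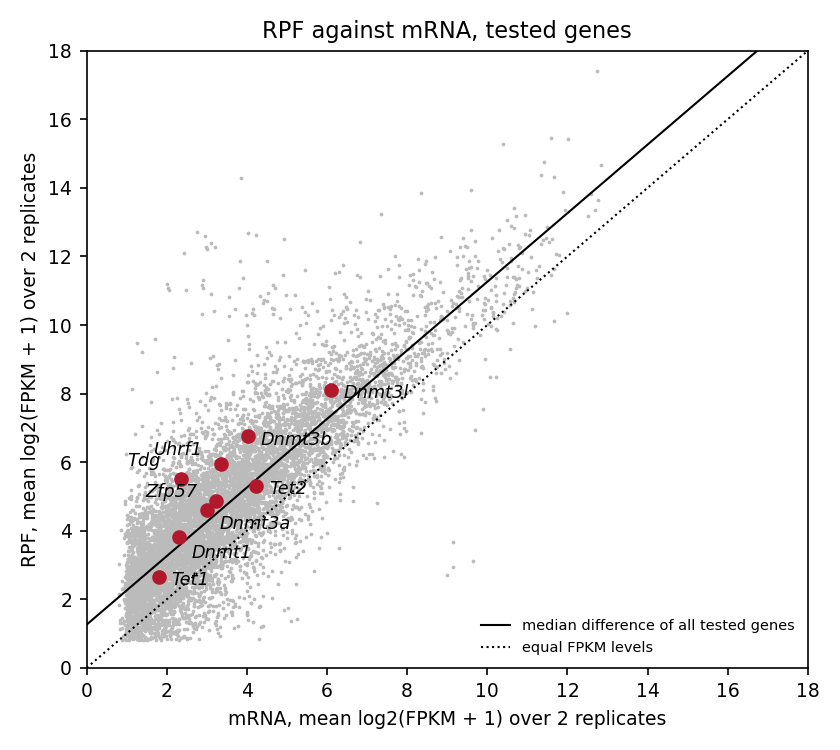
Mean log2(FPKM + 1) of RPF against that of mRNA over 2 replicates for the 8327 tested genes (grey) and the 9 tested members (red), with the median difference of all genes (1.26) as a solid line and equal levels as a dotted line. Tdg, Dnmt3b, and Uhrf1 lie farthest above the solid line among the members, and Tet1 and Tet2 lie below it.

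Dnmt3b and Uhrf1 came next. The RPF of Dnmt3b was 10.6 and 4.67 times its mRNA level, for a centred difference of 1.48 (SE 0.370, limma adjusted p = 0.0765). For Uhrf1 the ratios were 8.06 and 5.45, and the difference was 1.34 (SE 0.345, limma adjusted p = 0.0787). Both exceeded the median gene by more than 1 on the log2 scale but did not pass the test.

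The other members lay closer to the median gene, and none passed. Dnmt3l had a difference of 0.75 (limma adjusted p = 0.135), with RPF at 4.00 and 4.17 times the mRNA level. Zfp57, Dnmt3a, and Dnmt1 were at 0.38, 0.34, and 0.26 (limma adjusted p = 0.593, 0.597, and 0.544). Tet2 and Tet1 had negative values of -0.19 and -0.42 (limma adjusted p = 0.612 and 0.280). The RPF of Tet2 was 2.12 and 2.22 times its mRNA level, and that of Tet1 was 2.26 and 1.97 times. With a pseudocount of 0.1, the differences of Tet2 and Tet1 were closer to each other, at -0.28 and -0.35. Thus 7 of the 9 tested members lay above 0, with a median of 0.38, where the median of all genes is 0 by centring. Under an unadjusted limma p of 0.05, 4 members were higher (Tdg, Dnmt3b, Uhrf1, and Dnmt3l) against 21.7% of all genes, and 0 were lower against 14.2%.

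**Figure D4:**
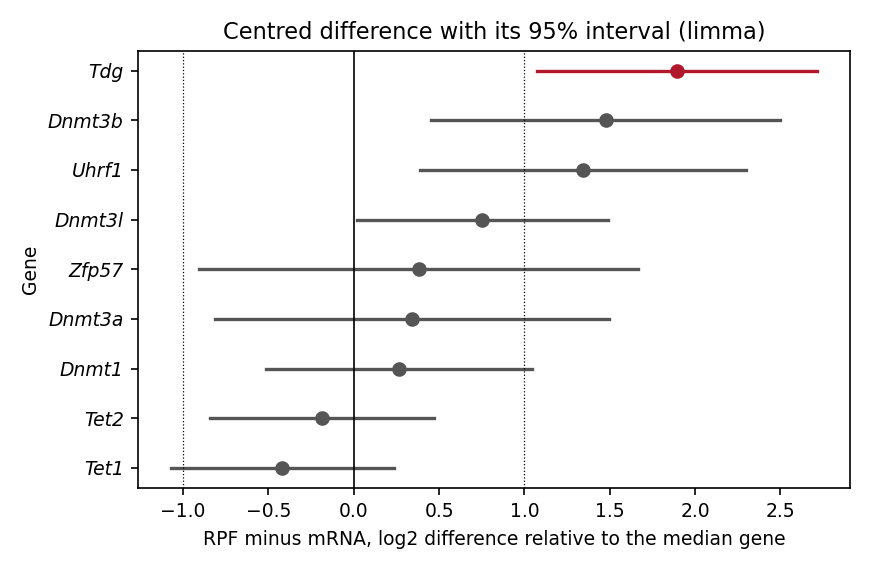
Centred difference of RPF and mRNA, log2(FPKM + 1), for the 9 tested members, with 95% confidence intervals from limma, 0 as the median gene, and dotted lines at 1 and -1. Tdg at 1.90 is the called member (red), and the intervals of Dnmt3b, Uhrf1, and Dnmt3l also lie above 0 before adjustment.

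The 3 members with the highest differences were also the 3 with the most repeated coding sequence. Of the 28-base windows of each coding sequence, 1127 of 1239 (91.0%) occurred at 2 or more places in the genome for Tdg, 931 of 2322 (40.1%) for Uhrf1, and 618 of 2556 (24.2%) for Dnmt3b. The Tdg copies lay at chr10:41773919-41775162, chr15:82346862-82348101, and chr7:83389632-83390897, with a shorter one at chr19:33747818-33748017. For Uhrf1, the larger copy lay at chrX:118448597-118450185 and matched 1002 windows. Those of Dnmt3b lay mostly in the neighbouring duplicate, at chr2:153539247-153555625, with 605 matching windows.

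For the remaining members, repeated windows were few. They made up 37 of 2700 windows (1.37%) for Dnmt3a and 12 of 4836 (0.248%) for Dnmt1, of which 5 were over the limit of 20 places per read set by the authors. Dnmt3l, Tet1, Tet2, Tet3, and Zfp57 had 0 repeated windows, and 0 windows were shared between members. These counts cover exact matches to the genome only, and the authors allowed 2 mismatches per Ribo-seq read, so 0 repeated windows does not show that no read could map elsewhere. The study's methods name the mm9 transcriptome as the mapping target, so the counts may include places outside it. In GENCODE vM1, 892 Tdg windows also occurred in a coding transcript of another gene, Gm5806, against 0 for Uhrf1 and 0 for Dnmt3b. Reads of Tdg, Uhrf1, and Dnmt3b could be split with or drawn from copies where the mapping covered those copies. Their levels are uncertain to that extent. How Cufflinks shared such reads is not given in the sources used here, and the part of repeated windows in the differences was not tested.

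**Figure D5:**
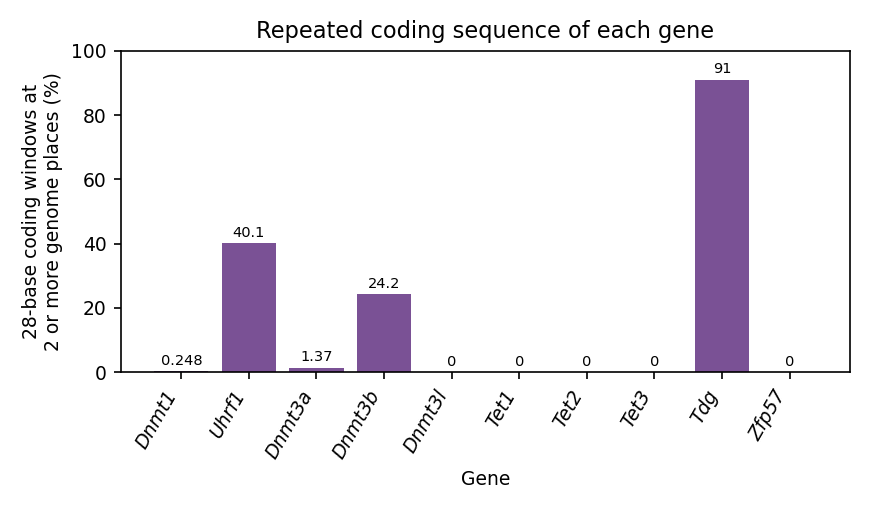
Share of the 28-base coding windows of each of the 10 members that occurred at 2 or more places in the genome, as bars in percent from 0. Tdg (91.0%), Uhrf1 (40.1%), and Dnmt3b (24.2%) stand above the other 7 members, which lie between 0% and 1.37%.

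The 2 assays were also scaled on different lengths, the whole transcript for mRNA and the coding sequence for RPF. The coding sequence made up 36.2% of the longest coding transcript of Tdg, 28.2% of that of Dnmt3a, 42.6% of that of Tet1, and 92.4% of that of Dnmt1. For Tet2 the annotated transcript is coding sequence alone (100%). These lengths are from GENCODE vM1, whereas the authors computed FPKM on UCSC gene models of mm9. The lengths behind the deposited values, that of Tet2 included, may therefore differ. Across 7431 tested genes the median was 57.2%, and this share had a Spearman correlation of -0.264 with the centred difference. This is a correlation across genes that share libraries, given without a p-value, and the part of transcript ends in the members' differences was not tested.

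Genes that work with the members were read from the same fit, in lists of known function. Of 14 partners in maintenance and imprint protection, 13 were tested, with a median difference of 0.40, and 1 was called higher. This was Trim28, the corepressor that ZFP57 recruits, with 39.5 and 39.3 FPKM of mRNA and 368 and 355 FPKM of RPF (difference 1.90, SE 0.234, limma adjusted p = 0.0263). Dppa3, which shields the maternal genome from demethylation in the zygote, had the highest mean level of this list in both assays, 659 FPKM of mRNA and 1959 FPKM of RPF, and a difference of 0.32.

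Of 16 genes of base excision repair, the pathway that follows TDG, 13 were tested, with a median of 0.32. Xrcc1, the scaffold of single-strand break repair, was the 1 called higher, with 11.7 and 10.3 FPKM of mRNA and 228 and 150.3 FPKM of RPF (difference 2.70, SE 0.319, limma adjusted p = 0.0250). Apex1, the endonuclease that cuts at the site left by TDG, had the highest mean mRNA level of the list, 73.9 FPKM.

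Of 12 genes of methyl donor supply, which make the S-adenosylmethionine used by every DNMT, 10 were tested, with a median of 0.47. Mat2a, which makes S-adenosylmethionine, was called higher, with 23.9 and 28.7 FPKM of mRNA and 203 and 165 FPKM of RPF (difference 1.50, SE 0.270, limma adjusted p = 0.0458). The highest mean mRNA level belonged to Shmt1, a serine hydroxymethyltransferase, at 37.7 FPKM.

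Among 7 methyl-CpG readers, 3 were tested and 0 were called by limma or reached an unadjusted p of 0.05. The highest was Mbd3, with a mean of 7.12 FPKM of mRNA and 39.7 FPKM of RPF. Among 11 other relatives and regulators, 9 were tested and 0 were called, with 1 lower at an unadjusted p of 0.05. Idh2 had the highest mean mRNA level (51.6 FPKM) and Idh1 the highest mean RPF level (133 FPKM) of these, both of them isocitrate dehydrogenases. Over the 5 lists, limma called 4 of 48 tested genes higher and 0 lower, and 8 were higher and 4 lower at an unadjusted p of 0.05, so that the shares called did not stand above the background of 9.13% and 3.24%.

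The genes most like Dnmt3l over the 4 libraries, by Euclidean distance in log2(FPKM + 1), were Paip2 (0.15), Dnajc8 (0.22), and Ddb1 (0.29). Those most like Uhrf1 were Flvcr2 (0.25), Clptm1 (0.29), and Utp6 (0.36). These distances describe similar levels in one stage only.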

How the data were processed

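The authors deposited FPKM values per gene for each library. Per the labels and the study's methods, reads were trimmed (Trim Galore 0.4.2, cutadapt 1.14), and rRNA reads were removed from Ribo-seq (Bowtie2 2.2.2). Reads were then mapped with STAR 2.5.3a, and the methods name the mm9 transcriptome as the target. FPKM came from Cufflinks 2.2.1, with transcripts as the features in RNA-seq (Smart-seq2) and coding regions in Ribo-seq. Strand settings are not given in the sources used here.

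The members, lists, and tests were chosen with earlier results of these data known. Where a symbol had several rows, the row with the highest FPKM was kept. RPF and mRNA were compared with limma 3.58.1 (R 4.3.3) on log2(FPKM + 1), centred on the median difference, with Benjamini-Hochberg adjustment over all 8327 genes with a mean of at least 1 FPKM in both assays. Named genes were the 10 members, the highest and lowest called gene and the gene with the highest mean level in each list, and the 3 genes nearest to Dnmt3l and Uhrf1. Among the listed genes that were called, 1 is counted but not reported here.

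Footprints were estimated from the FPKM steps, coding length, and effective length (fragment mean 200, SD 80 bases). Coding and transcript lengths were those of GENCODE vM1, not of the UCSC gene models used by the authors. Of the 19 member values above 0 in Ribo-seq, 7 were within 0.1 of a whole footprint, so footprints are approximate, and intervals and floors cover counting error only. Windows were counted on NCBIM37 with GENCODE vM1 coding sequences, where a window across an exon junction that matched 1 copy counted as 1 place, so that the shares of repeated windows are lower limits. Scripts used Python 3.11.15, numpy 2.4.6, pandas 2.3.3, scipy 1.17.1, and numba 0.67.0. In data simulated on the 8327 genes with 50 genes per size, limma recovered 18% of those changed by 1 on the log2 scale, 80% at 2, 84% at 3, and 72% at -2, and called 2% of 200 unchanged genes. These changed and unchanged genes were drawn above an mRNA level that only Dnmt3l, Tet2, and Dnmt3b exceed among the tested members. The simulated spread did not depend on level, so the rates do not cover lower genes such as Tdg. Alternatives were the pseudocount, the filter, the centring, quantile normalization, a variance trend, summed symbols, a block for the replicate number, and the omission of each replicate in turn.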

Additional observations from a re-analysis of the deposited data

How the results depend on the processing

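Against 760 genes higher, 270 lower, and 1 member called by limma, a pseudocount of 0.1 gave 413, 130, and 0, and no filter gave 1997, 1136, and 4. A variance trend gave 1134, 477, and 3, and quantile normalization gave 646, 470, and 1. The members added by the variance trend were Uhrf1 and Dnmt3b (limma adjusted p = 0.0443 and 0.0342). Requiring 5 FPKM gave 515 lower and 2 members, Uhrf1 and Dnmt3b (limma adjusted p = 0.0483 and 0.0464), with Tdg, Dnmt1, and Tet1 untested. Without centring, which adds 1.26 to every gene, the counts were 4113, 65, and 8. Leaving out 1 replicate gave 0 to 1486 higher, 0 to 1601 lower, and 0 to 3 members. Each such fit leaves 1 library in an assay, which is assumed to vary like the other assay. With the spread from Ribo-seq alone (without RNA-seq replicate 1 or without RNA-seq replicate 2), 0 of all genes were called. With the spread from RNA-seq alone, 1352 to 1486 were higher, and Tdg was called without Ribo-seq replicate 1 and Tdg, Uhrf1, and Dnmt3b without Ribo-seq replicate 2. These counts follow which assay gave the spread and are no check of a single member. Tet1 and Tet2 turned positive without a filter (0.0086 and 0.24) and without centring (0.84 and 1.07). Dropping the filter moves the centre, so it too adds the same amount to every member. Leaving out 1 replicate moved Dnmt3a from -0.069 (without Ribo-seq replicate 2, and -0.061 without RNA-seq replicate 1) to 0.73, and Zfp57 from -0.26 (without Ribo-seq replicate 2) to 0.87. Of 105 alternative values for members, 79 kept their direction and side of the threshold, 4 no longer passed it (all Tdg), 15 passed it with the same sign, and 7 changed sign, of which Tet2 without centring also passed it. The causes were not tested, other than the shifts added by dropping the filter or the centring.

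The replicate numbers were not treated as pairs, since the labels do not say that they mark shared embryos. The deviations of same-numbered libraries had a correlation of 0.0099 across 8327 genes. With 2 replicates per assay both pairs give this same value, and the other numbering gives -0.0099, so it does not decide the pairing. With the replicate number as a block, limma called 27 genes higher, 1 lower, and 0 members (Tdg adjusted p = 0.0930), and the block leaves fewer degrees of freedom. The Ribo-seq depth limits Tet3, Zfp57, Tet1, and Tdg most, with about 30 footprints or fewer in both libraries. Dnmt3a, with about 26 and 35 footprints, and Dnmt1, with about 30 and 32, were close to Tdg in depth.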
